A study of Homo sapiens with 31 samples.

Results

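The 60 genes described here lie close to each other on the long arm of human chromosome 16, around band q22. They were proposed as a set with results of these data in view, as neighbours whose expression shifted evenly between tumour lines. The members were thus chosen by their measured differences between lines, which are given below as a description. A member counted as measured where a probe set was annotated to its symbol alone. This held for 55 of the 60, out of 17314 genes measured in the whole series, and each of the 55 had a single probe set. The other members were LCAT and COG8, read only by sets shared with SLC12A4 and PDF, and DPEP3, PSMD7 and ATXN1L. In the RefSeq gene table for GRCh38.p14, all measured members lay on chromosome 16, from RIPOR1 at one end to DHX38 at the other, with 22 further measured genes among them, while PSMD7 lay beyond DHX38.

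The values are log2 expression levels from 31 arrays of xenograft tumours of PC3, an established line of human prostate carcinoma cells without functional p53. The 4 lines were unpassaged wild type PC3 (wt), conditioned in vitro, and the clones A3, D3 and D4, which had been passaged in animals and isolated again. The labels call wt and A3 sensitive to cyclophosphamide (CPA), a prodrug whose activated form crosslinks DNA, and D3 and D4 resistant. Every line was implanted and grown to a mean tumour volume of 30 mm3. Tumours then stayed untreated (control) or the animals received CPA at 120 mg/kg into the peritoneum. Each of the 8 groups held 4 arrays except untreated A3, which held 3, because the submitters left out 1 of the 32 planned arrays as an outlier. Each passaged line is 1 clone, so resistance, passage and other differences between clones cannot be told apart. The labels give replicate numbers and do not say that each array held another animal's tumour, so errors and p-values rest on the spread among the arrays of a group, part of which may be technical.

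Neighbouring genes on a chromosome are present in the same number of copies unless a breakpoint falls between them. A gain or loss of a chromosome stretch therefore tends to raise or lower the mRNA of many neighbours at once, although feedback and other regulation can buffer or override it for single genes. PC3 has a heavily rearranged karyotype. Band 16q22 is known in carcinomas chiefly for the cadherin genes CDH1 and CDH3 and the chromatin insulator gene CTCF, and it also holds many housekeeping genes of RNA processing and membrane traffic. DNA copy number was not measured here.

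Promoter sequence of 3 members is shown because they follow each other in map order in the middle of the set. Of the members, SLC7A6, an amino acid transporter light chain, also had the largest difference between lines. The first stretch is the 250 bases before the start of SLC7A6, chr16:68264276-68264525 on the plus strand of GRCh38.p14. The second is the whole of the 72 bases that separate the starts of SLC7A6OS and PRMT7, which point away from each other, chr16:68310947-68311018, written on the plus strand. Both come from RefSeq, and capitals mark the GC box letters GGGCGG or, on the other strand, CCGCCC.
SLC7A6: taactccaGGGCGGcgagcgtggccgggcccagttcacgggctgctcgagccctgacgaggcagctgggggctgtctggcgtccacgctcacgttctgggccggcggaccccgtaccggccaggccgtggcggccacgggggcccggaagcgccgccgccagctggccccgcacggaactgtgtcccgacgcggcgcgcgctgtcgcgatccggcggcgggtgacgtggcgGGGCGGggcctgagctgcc
SLC7A6OS to PRMT7: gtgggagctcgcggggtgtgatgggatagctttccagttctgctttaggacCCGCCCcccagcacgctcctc
The SLC7A6 stretch held 2 matches and the shared stretch 1. Over all 35093 RefSeq windows of 250 bases before a gene start, 42.6% held a match on either strand. Of 56 such windows belonging to the 42 measured members found in that table, 33 did (58.9%). A match is a run of letters and not a measured binding site.

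At the median, expression of the measured members was lowest in wt, next in A3 and highest in the resistant clones D3 and D4. For each array, every member was expressed as its deviation from its own mean of the 8 groups, and the median over the 55 members was taken. In wt these medians ran from -0.24 to -0.09 with a middle value of -0.18. In A3 they ran from -0.14 to -0.01 with a middle value of -0.08. In D3 they ran from 0.03 to 0.15 with a middle value of 0.09, and in D4 from 0.09 to 0.31 with a middle value of 0.17. All wt and A3 arrays thus lay below all D3 and D4 arrays, whereas wt overlapped A3 and D3 overlapped D4. The same median taken over all genes stayed between -0.05 and 0.04 on every array. The normalization forces all arrays to a common distribution, so this narrow range was largely fixed in advance. The measured genes lying among the members without being named as such shifted too. Their medians ran from -0.17 to -0.10 in wt, -0.12 to -0.01 in A3, 0.03 to 0.13 in D3 and 0.07 to 0.20 in D4. For the members, untreated and treated groups of a line lay close together. The group means ± SD (n = 4) of the member medians were -0.19 ± 0.04 and -0.15 ± 0.04 in wt, 0.10 ± 0.03 and 0.07 ± 0.05 in D3, and 0.16 ± 0.10 and 0.18 ± 0.06 in D4. In A3 they were -0.07 ± 0.01 (n = 3) and -0.09 ± 0.06 (n = 4).

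**Figure D1:**
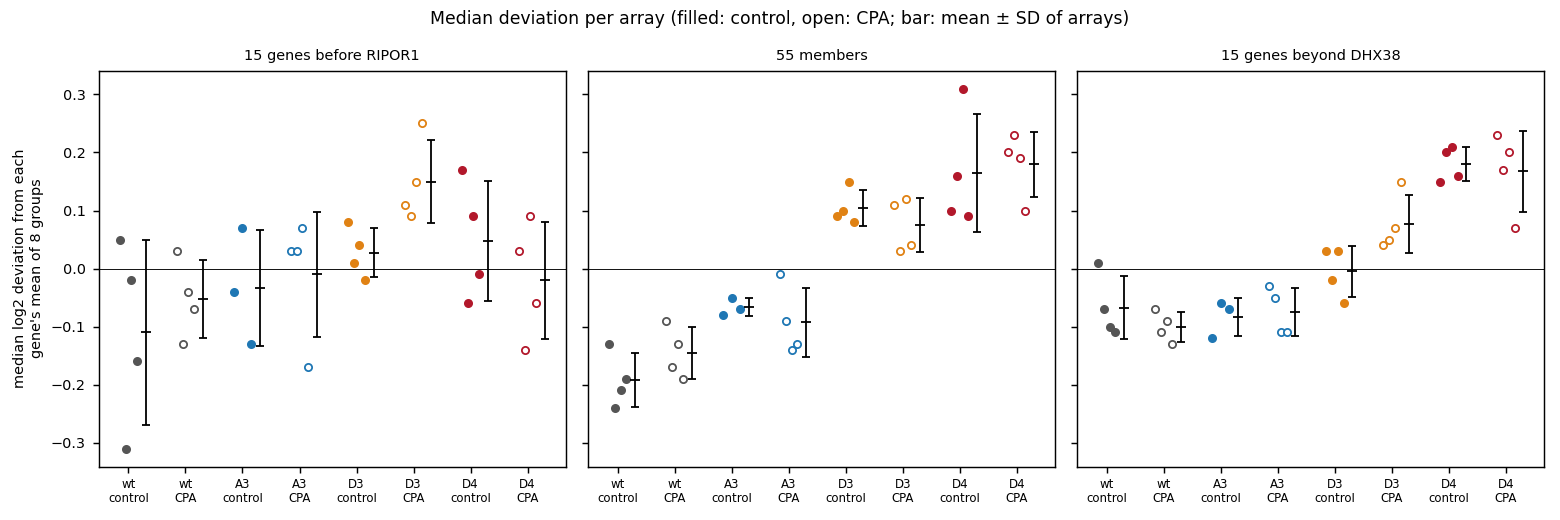
Median log2 deviation per array (vertical axis) in the 8 groups of line and treatment (horizontal axis) for the 15 measured genes before RIPOR1, the 55 members and the 15 measured genes beyond DHX38. Points are arrays, filled for control and open for CPA, and bars give the mean ± SD of the arrays. The members lie between -0.24 and -0.01 in wt and A3 and between 0.03 and 0.31 in D3 and D4.

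Counted gene by gene, between 1 and 18 of the 55 members stood above their own mean on a wt array and between 11 and 25 on an A3 array. On D3 arrays 35 to 48 did, and on D4 arrays 39 to 50. The line means of 49 members were higher in both D3 and D4 than in both wt and A3, an order that 17.8% of all genes had. The full order wt, A3, D3, D4 from low to high held for 29 members and for 5.94% of all genes.

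In the contrasts that follow, a line is the mean of its untreated and treated groups. A gene was called where limma's p was under 0.05 after Benjamini-Hochberg adjustment across the 17314 genes. Against A3, the other passaged clone, the members had a median log2 difference of 0.16 in D3 (1.12-fold), with 52 of 55 above 0, and 19 were called higher and 0 lower. Of all genes 9.36% were called in that contrast, 3.77% higher and 5.59% lower. The median of all genes was 0.00, a value that the normalization largely fixes in advance. In D4 the median was 0.24 (1.18-fold), with 51 above 0, and 33 members were called higher and 0 lower, against 13.3% of all genes called, 6.42% higher and 6.90% lower. Line differences served to choose the members, so nothing is read from the counts. Both share the A3 arrays. The standard error of a line difference was 0.07 at the median, and the number of arrays limits this precision.

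Against wt, D3 had a member median of 0.25 (1.19-fold) with 38 called higher and 0 lower. Of all genes 29.7% were called, 14.5% higher and 15.2% lower. D4 had a median of 0.34 (1.27-fold) with 39 called higher and 0 lower, beside 28.3% of all genes called, 13.9% higher and 14.4% lower. In both, 54 of the 55 differences lay above 0. A3 stood between: its median was 0.10 (1.07-fold), 43 differences lay above 0, and 15 members were called higher and 2 lower, beside 29.8% of all genes called, 15.3% higher and 14.5% lower. The members called lower in A3 were CDH3 and NFAT5. Chromosome 16 as a whole, members included, had a median of 0.08 in A3 against wt, close to that of the members. The 3 comparisons share the wt arrays, so their values are not independent of each other.

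D4 and D3 differed little. The member median was 0.06, 39 of 55 differences were above 0, and 5 members were called higher in D4 (NIP7, WWP2, COG4, SF3B3 and PHLPP2), beside 2.61% of all genes called, 1.57% higher and 1.04% lower. This count turned on single arrays. It was 9 without D4 control replicate 1. It was 3 without D3 control replicate 1 or 2, D3 CPA replicate 4 or D4 CPA replicate 5. It was 2 without D3 CPA replicate 3, D4 control replicate 5 or D4 CPA replicate 1 or 2. COG4 and PHLPP2 were called in each of the fits that gave 2 or 3.

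For some members the arrays of both lines did not overlap at all. All D3 arrays lay above all A3 arrays for 5 members (SLC7A6, SLC7A6OS, CDH3, TANGO6 and NFAT5), a pattern shown by 1.14% of all genes. All D4 arrays lay above all A3 arrays for 11 members, beside 1.26% of all genes. Against wt the counts were 18 members in D3 (3.17% of all genes) and 24 in D4 (3.23%). A3 lay wholly above wt for 2 members, HAS3 and SF3B3 (4.01%), and wholly below it for 1, NFAT5 (5.03%). D4 lay wholly above D3 for COG4 and PHLPP2 (0.306%).

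The role that covered most members was RNA processing, export and ribosome assembly, with 12 measured genes. All 12 were called higher in D3 than in wt (median 0.39) and 11 in D4 (median 0.55). Against A3, 7 were called in D3 (median 0.23) and 11 in D4 (median 0.31). Of all genes, 14.5% were called higher in D3 and 13.9% in D4 against wt, and 3.77% and 6.42% against A3. The same shares stand beside the counts of the other roles below. The ribosome assembly factors were UTP4, a protein of the nucleolar small subunit processome, NIP7, which acts in pre-rRNA processing, and NOB1, the endonuclease that finishes the small subunit rRNA. In D4 they stood 0.70 ± 0.06, 0.67 ± 0.06 and 0.56 ± 0.07 (SE) above wt. The splicing genes SF3B3, of the branch site recognition complex, and DHX38, a spliceosomal helicase, stood 0.61 ± 0.06 and 0.55 ± 0.06 above it. DUS2, which makes dihydrouridine in tRNA, stood 0.55 ± 0.06 and EDC4, the scaffold of mRNA decapping, 0.43 ± 0.06 above wt. The mRNA export helicases DDX19A and DDX19B stood 0.55 ± 0.07 and 0.41 ± 0.08 above it; they are adjacent, near-identical copies, so their probe sets may share signal. DDX28, a helicase of mitochondrial ribosome assembly, read 0.36 ± 0.08 and SLC7A6OS, the counterpart of a yeast factor for nuclear import of RNA polymerase, 0.26 ± 0.05. ESRP2, an epithelial splicing regulator, was the member of this role not called in D4 against wt (0.18 ± 0.07), although it was 0.33 ± 0.08 higher in D3 than in A3.

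The 6 genes of chromatin, centromere and telomere were all called higher in D4 than in wt (median 0.39), and 4 of the 6 in D4 than in A3 (median 0.27). PRMT7, an arginine methyltransferase, stood 0.56 ± 0.06 above wt in D4. The telomere capping proteins ACD and TERF2 stood 0.48 ± 0.06 and 0.41 ± 0.06 above it. THAP11, a zinc finger regulator, stood 0.38 ± 0.08 and CTCF 0.37 ± 0.05 above wt. CENPT, which links centromere chromatin to the kinetochore, stood 0.25 ± 0.07 above it. For CTCF most of the step lay between wt and A3 (0.23 ± 0.05), and D3 and D4 stood 0.05 ± 0.05 and 0.14 ± 0.05 above A3, neither of them called.

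Of the 5 measured transcription factors, more were called higher against A3 than against wt. Against A3, 4 of 5 were called higher in D3 (median 0.29) and in D4 (median 0.38). Against wt, 2 of 5 were called in each clone, with medians of 0.09 and 0.13. NFATC3, a calcium-responsive factor, stood 0.38 ± 0.06 above A3 and 0.50 ± 0.06 above wt in D4. The zinc finger gene ZFP90 stood 0.45 ± 0.06 above A3 and 0.34 ± 0.06 above wt. For NFAT5, the factor of the response to osmotic stress, D4 stood 0.62 ± 0.08 above A3 and 0.13 ± 0.08 above wt. ZNF19 stood 0.21 ± 0.06 above A3 and 0.09 ± 0.06 above wt. ZNF821 was called in no line contrast and differed by 0.09 ± 0.08 between D4 and A3.

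Of the 8 genes of membrane traffic and the Golgi, 7 were called higher in D4 than in wt (median 0.45) and 5 in D4 than in A3 (median 0.26). COG4, of the Golgi tethering complex, and VPS4A, the ATPase that disassembles membrane scission filaments, each stood 0.55 above wt in D4, with errors of 0.05 and 0.08. TANGO6, needed for Golgi organisation, read 0.53 ± 0.05 and NUTF2, the carrier that imports Ran into the nucleus, 0.48 ± 0.06. AP1G1, a clathrin adaptor subunit, read 0.42 ± 0.06 and the sialyltransferase ST3GAL2 0.27 ± 0.09. The cargo receptor family member TMED6 read 0.21 ± 0.08. The sulfotransferase CHST4, with a low signal in all lines, read 0.01 ± 0.10 and was not called.

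Both measured transporters were called higher against A3, SLC7A6 by 0.77 ± 0.06 in D4 and the potassium chloride cotransporter SLC12A4 by 0.26 ± 0.07. Against wt, SLC12A4 stood 0.16 ± 0.07 higher in D4 and was not called. Among the lipid and matrix enzymes, CYB5B, a cytochrome of the outer mitochondrial membrane, stood 0.49 ± 0.07 above wt in D4. HAS3, a hyaluronan synthase, stood 0.40 ± 0.05 and the lysosomal phospholipase PLA2G15 0.27 ± 0.05 above it. SMPD3, a neutral sphingomyelinase with low signal, differed by 0.03 ± 0.09. HAS3 had its step between wt and A3 (0.38 ± 0.05), with D4 0.02 ± 0.05 above A3.

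The ubiquitin ligase WWP2 stood 0.51 ± 0.06 and PHLPP2, a phosphatase that acts on AKT, 0.61 ± 0.06 above wt in D4, while the kinase PSKH1 stood 0.14 ± 0.06 above it and was not called. The immunoproteasome subunit PSMB10 stood 0.29 ± 0.06 above wt in D3 and 0.20 ± 0.06 in D4. Of the 7 genes of adhesion, polarity and cytoskeleton, 4 were called higher in D4 than in wt. These were CDH3, the gene of P-cadherin, by 0.50 ± 0.07, the syntrophin SNTB2 by 0.29 ± 0.06, RANBP10, a Ran binding protein, by 0.24 ± 0.08, and RIPOR1 by 0.19 ± 0.07. The polarity gene PARD6A differed by 0.21 ± 0.08, the tight junction gene MARVELD3 by 0.07 ± 0.08 and CARMIL2, a regulator of actin capping, by 0.02 ± 0.08, none of them called.

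The 5 genes of cilia and of germ or neural cells differed little between lines. Their medians were 0.09 in D4 against wt and 0.01 in D4 against A3, and of the 5 only ENKD1, a ciliary protein gene, was called against wt (0.21 ± 0.05). The axonemal gene HYDIN read 0.11 ± 0.07, CALB2 (calretinin) 0.09 ± 0.08, NRN1L 0.01 ± 0.07 and TSNAXIP1 -0.03 ± 0.07. The dipeptidase gene DPEP2 differed by 0.02 ± 0.08. GFOD2, which codes for an oxidoreductase domain protein, stood 0.29 ± 0.08 above wt in D4 and was called.

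**Figure D2:**
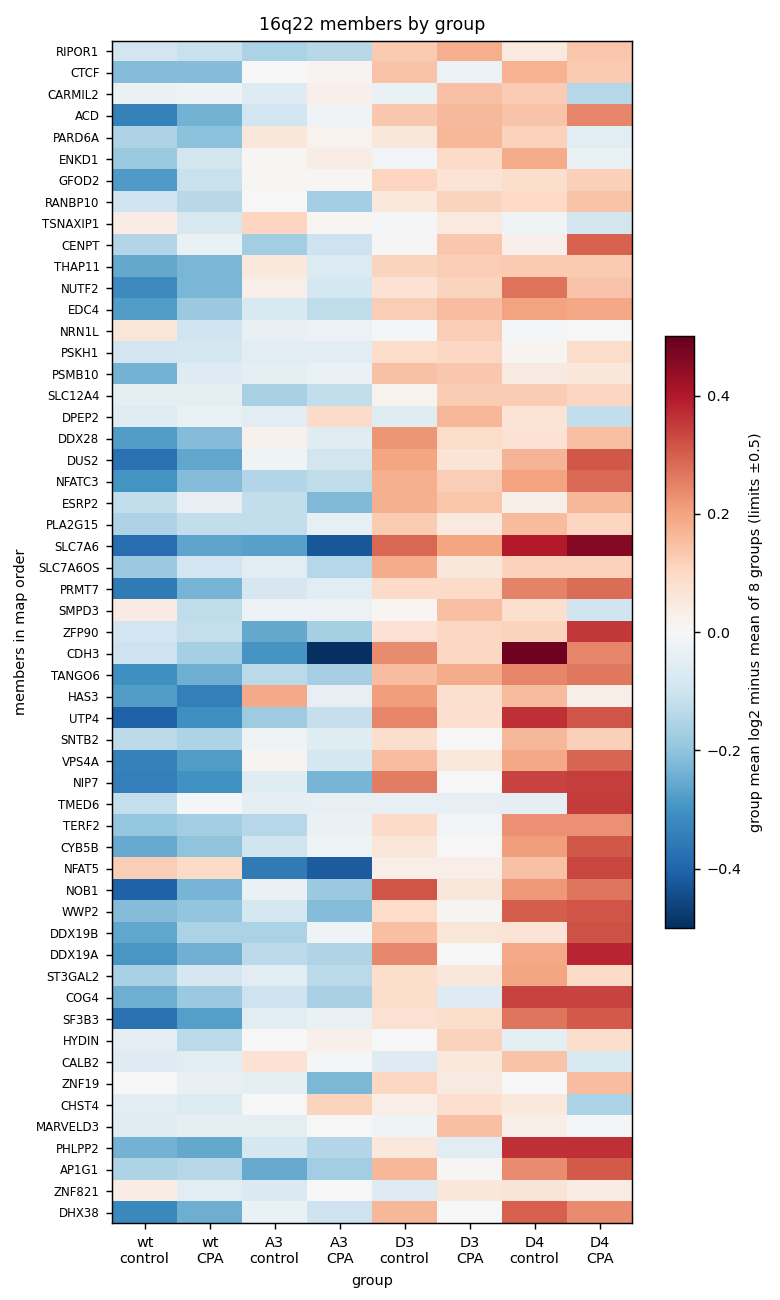
Group mean log2 expression of each of the 55 members (rows, in map order) minus that gene's mean of the 8 groups (columns are the groups of line and treatment, colour is the difference). Most rows turn from blue in wt and A3 to red in D3 and D4, in both treatments, while TSNAXIP1, CHST4 and ZNF821 stay pale and NFAT5 is lowest in A3.

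The 8 members with the largest spread between line means were SLC7A6, CDH3, UTP4, NIP7, NFAT5, PHLPP2, SF3B3 and NOB1. SLC7A6 had log2 values in wt of 7.81, 7.79, 7.81 and 7.80 untreated and 7.96, 7.90, 7.97 and 7.84 with CPA, and in A3 of 7.95, 7.94 and 7.84 untreated and 7.79, 7.79, 7.55 and 7.91 with CPA. In D3 its values were 8.36, 8.52, 8.56 and 8.44 untreated and 8.53, 8.34, 8.43 and 8.24 with CPA, and in D4 8.36, 8.59, 8.71 and 8.64 untreated and 8.52, 8.70, 8.56 and 8.76 with CPA. Both resistant clones lay above every wt and A3 array, whereas wt overlapped A3 and D3 overlapped D4. The fitted differences of D4 were 0.75 ± 0.06 (SE) from wt, or 1.68-fold, and 0.77 ± 0.06 from A3, and A3 differed from wt by -0.02 ± 0.06.

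CDH3 read 7.05, 6.85, 6.96 and 6.66 untreated and 6.73, 6.74, 6.97 and 6.84 with CPA in wt. It read 6.58, 6.72 and 6.78 untreated and 6.66, 6.36, 6.51 and 6.38 with CPA in A3. The D3 arrays read 7.35, 7.04, 7.33 and 7.18 untreated and 7.10, 7.12, 7.13 and 7.01 with CPA, and in D4 7.40, 7.48, 7.68 and 7.31 untreated and 7.16, 7.37, 7.34 and 7.04 with CPA. A3 was the lowest line, 0.27 ± 0.07 below wt, although the arrays of both lines overlapped. All D3 and D4 arrays lay above all A3 arrays, and D4 stood 0.76 ± 0.07 above A3, or 1.70-fold.

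NFAT5 too was lowest in A3, and its D3 mean lay slightly below that of wt. It read 8.74, 8.87, 8.61 and 8.82 untreated and 8.69, 8.86, 8.72 and 8.66 with CPA in wt and 8.33, 8.13 and 8.37 untreated and 8.01, 8.29, 8.20 and 8.39 with CPA in A3. In D3 it read 8.69, 8.88, 8.51 and 8.60 untreated and 8.65, 8.74, 8.59 and 8.70 with CPA, and in D4 8.81, 9.02, 8.29 and 8.98 untreated and 8.99, 9.05, 8.86 and 8.99 with CPA. All A3 arrays lay below all wt and all D3 arrays. The difference of A3 from wt was -0.50 ± 0.08, or 1.41-fold lower, whereas D3 differed from wt by -0.08 ± 0.08. D4 control replicate 4 read 8.29 and lay inside the range of A3.

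UTP4 followed the general order of the set. It read 10.15, 10.27, 10.36 and 10.34 untreated and 10.38, 10.38, 10.25 and 10.51 with CPA in wt and 10.38, 10.59 and 10.57 untreated and 10.50, 10.46, 10.53 and 10.77 with CPA in A3. D3 tumours read 10.99, 10.88, 10.89 and 10.95 untreated and 10.91, 10.66, 10.67 and 10.86 with CPA, and in D4 11.01, 11.03, 11.08 and 11.09 untreated and 11.03, 11.09, 10.87 and 11.02 with CPA. All D4 arrays lay above all A3 arrays, and all D3 arrays above all wt arrays, while neighbouring lines overlapped. D4 stood 1.62-fold above wt.

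NIP7 read 9.16, 9.29, 9.27 and 9.40 untreated and 9.32, 9.39, 9.24 and 9.32 with CPA in wt and 9.65, 9.55 and 9.47 untreated and 9.34, 9.51, 9.22 and 9.47 with CPA in A3. In D3 it read 9.85, 9.85, 9.90 and 9.92 untreated and 9.76, 9.49, 9.59 and 9.65 with CPA, and in D4 9.89, 9.95, 9.95 and 10.06 untreated and 10.04, 10.03, 9.75 and 10.06 with CPA. The treated D3 arrays lay below the untreated ones, a difference taken up with the CPA comparisons. NOB1 read 8.50, 8.31, 8.18 and 8.41 untreated and 8.67, 8.59, 8.42 and 8.40 with CPA in wt and 8.86, 8.43 and 8.86 untreated and 8.59, 8.75, 8.38 and 8.57 with CPA in A3. The D3 values of NOB1 were 9.00, 9.16, 9.08 and 9.03 untreated and 8.98, 8.77, 8.72 and 8.77 with CPA, and in D4 8.82, 8.97, 9.19 and 8.88 untreated and 9.03, 9.11, 9.04 and 8.89 with CPA. Both D3 and D4 lay wholly above wt for NIP7 and for NOB1, and D3 and D4 overlapped for both genes.

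PHLPP2 read 6.29, 6.43, 6.45 and 6.46 untreated and 6.49, 6.39, 6.44 and 6.23 with CPA in wt and 6.59, 6.53 and 6.58 untreated and 6.44, 6.37, 6.51 and 6.67 with CPA in A3. Its values in D3 were 6.70, 6.70, 6.61 and 6.82 untreated and 6.64, 6.57, 6.47 and 6.68 with CPA, and in D4 6.89, 7.08, 7.01 and 7.06 untreated and 6.92, 7.30, 6.88 and 6.95 with CPA. D4 lay wholly above the 3 other lines, which overlapped in order, and stood 0.36 ± 0.06 above D3. SF3B3 read 10.60, 10.64, 10.43 and 10.74 untreated and 10.66, 10.77, 10.63 and 10.76 with CPA in wt and 10.85, 10.85 and 11.06 untreated and 10.92, 10.80, 10.87 and 11.16 with CPA in A3. In D3 it read 10.97, 11.08, 11.09 and 11.06 untreated and 11.06, 11.00, 11.10 and 11.09 with CPA, and in D4 11.09, 11.24, 11.36 and 11.27 untreated and 11.31, 11.27, 11.21 and 11.34 with CPA. For SF3B3 it was wt that lay wholly below the other lines, and A3 stood 0.27 ± 0.06 above it.

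**Figure D3:**
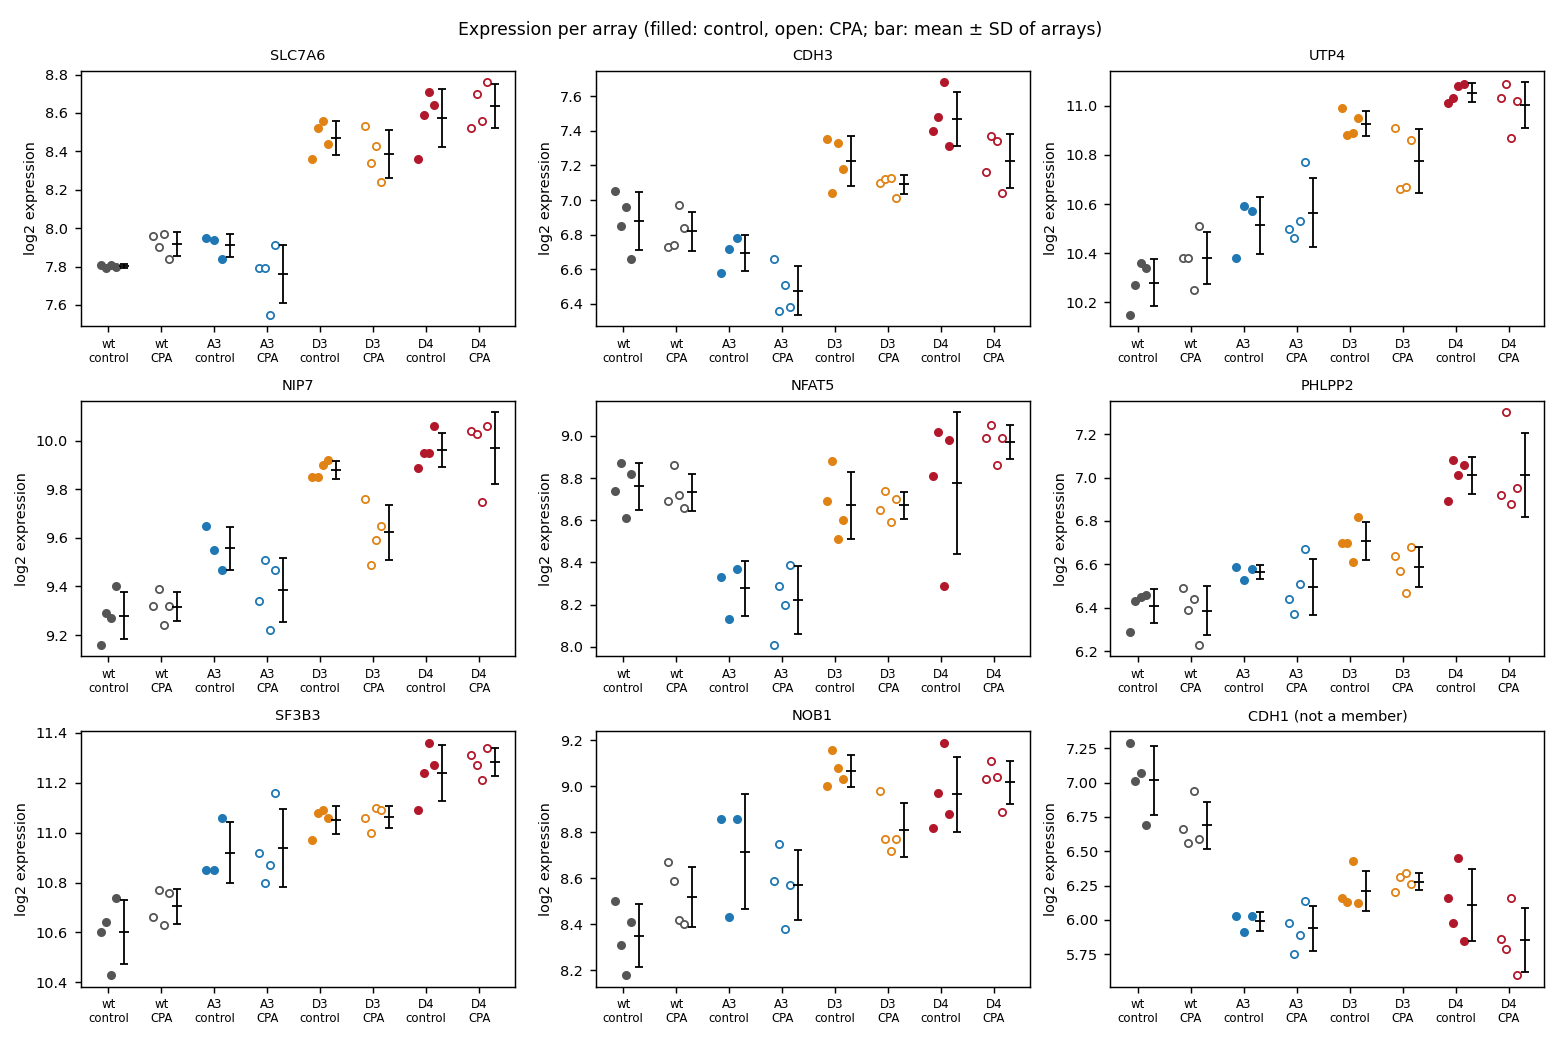
Log2 expression per array (vertical axes) in the 8 groups (horizontal axes) for the 8 members with the largest spread between lines and for CDH1, a neighbour that is not a member. Points are arrays, filled for control and open for CPA, and bars give the mean ± SD. SLC7A6 forms a low pair of lines (7.55 to 7.97) and a high pair (8.24 to 8.76), NFAT5 is lowest in A3, PHLPP2 is highest in D4, and CDH1 is highest in wt.

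Along the map, the difference between D4 and wt varied from stretch to stretch. The members were divided in map order into 5 stretches of 11 genes. The median difference of D4 from wt was 0.24 from RIPOR1 to THAP11, 0.20 from NUTF2 to ESRP2, 0.40 from PLA2G15 to SNTB2, 0.49 from VPS4A to ST3GAL2 and 0.11 from COG4 to DHX38. The fifth stretch was split: COG4, SF3B3, PHLPP2, AP1G1 and DHX38 stood between 0.42 and 0.61 above wt, and its 6 other members (HYDIN, CALB2, ZNF19, CHST4, MARVELD3 and ZNF821), all with signals below that of the median gene, between 0.01 and 0.11. PHLPP2, at a mean log2 signal of 6.65, was also below the median gene. It was still brighter than the 6 others, whose signals ran from 4.35 (HYDIN) to 6.31 (ZNF19). The 2 parts thus differed in signal as well, and its part in the split was not tested. For D3 against wt the stretches had medians of 0.25, 0.29, 0.30, 0.26 and 0.15 in the same order. For D3 against A3 they were 0.08, 0.18, 0.22, 0.19 and 0.12, and for D4 against D3 0.02, -0.05, 0.10, 0.18 and 0.05.

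The 22 measured genes that lie among the members without being named as such differed in the same direction at the median. Their median difference was 0.25 in D4 against wt, 0.20 in D3 against wt and 0.17 in D4 against A3. Of the 22, 12 were called higher and 1 lower in D4 against wt, beside 13.9% of all genes called higher and 14.4% lower. The highest were NQO1, a quinone reductase, at 0.72 ± 0.05, DHODH, of pyrimidine synthesis, at 0.55, VAC14, of lipid kinase regulation, at 0.48, AARS1, the alanyl tRNA synthetase, at 0.48, and PDPR, a regulator of pyruvate dehydrogenase, at 0.41. The lowest were CDH1 at -0.87 ± 0.09 (SE), TAT at -0.01, the read-through pseudogene PDXDC2P-NPIPB14P at 0.02, C16orf86 at 0.04 and IL34 at 0.05. CDH1, the gene of E-cadherin, lies next to CDH3. Against wt, CDH1 was lower in D3 (-0.61) and D4, where CDH3 was higher, but in A3 both were lower (-0.89 for CDH1 and -0.27 for CDH3). Against A3, CDH1 stood 0.28 ± 0.09 higher in D3 and 0.02 ± 0.09 in D4, neither called, while CDH3 was called higher in both. CDH1 read 7.29, 7.01, 7.07 and 6.69 untreated and 6.66, 6.56, 6.94 and 6.59 with CPA in wt, and the highest array of any clone read 6.45, in D4.

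The genes next to the first and last member differed from wt to an extent that depended on the side and the clone. Among the 15 measured genes before RIPOR1 the median difference of D4 from wt was 0.09, with 5 called higher and 0 lower, and that of D3 was 0.20, with 8 called higher. The value of D4 there was that of the rest of chromosome 16 (0.09), and the value of D3 was above it (0.12). The 5 nearest genes on that side stood in D4 at 0.01 (AGRP), 0.57 (ATP6V0D1, a proton pump subunit), 0.16 (HSD11B2), 0.05 (ZDHHC1) and 0.05 (TPPP3). Among the 15 measured genes beyond DHX38 the median was 0.27 in D4, with 9 called higher, and 0.11 in D3, with 2 called higher. Of all genes 13.9% were called higher in D4 and 14.5% in D3, so the 2 of 15 in D3 were a share near the background, and the D3 median was below that of the short arm (0.13). The 5 nearest there stood in D4 at 0.26 (PMFBP1), 0.07 (ZFHX3), 0.27 (GLG1), 0.82 (RFWD3, a ubiquitin ligase of DNA repair) and 0.41 (MLKL, the effector of necroptosis). Further out, the 104 measured genes beyond this flank had medians of 0.13 in D4 and 0.14 in D3, and the 123 genes of the long arm before the other flank 0.05 and 0.03. The 389 genes of the short arm stood at 0.08 and 0.13. The differences of D4 from A3 were 0.05 before RIPOR1, 0.33 beyond DHX38, 0.17 further out and 0.00 on the short arm. Among the 15 genes beyond DHX38, D3 was called higher than A3 for PMFBP1 (0.27), GLG1 (0.24), WDR59 (0.26), ZFP1 (0.34) and CFDP1 (0.22) alone. Among the 15 before RIPOR1, D3 was called higher than A3 for FHOD1 alone (0.29). Of all genes 3.77% were called higher in D3 than in A3.

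**Figure D4:**
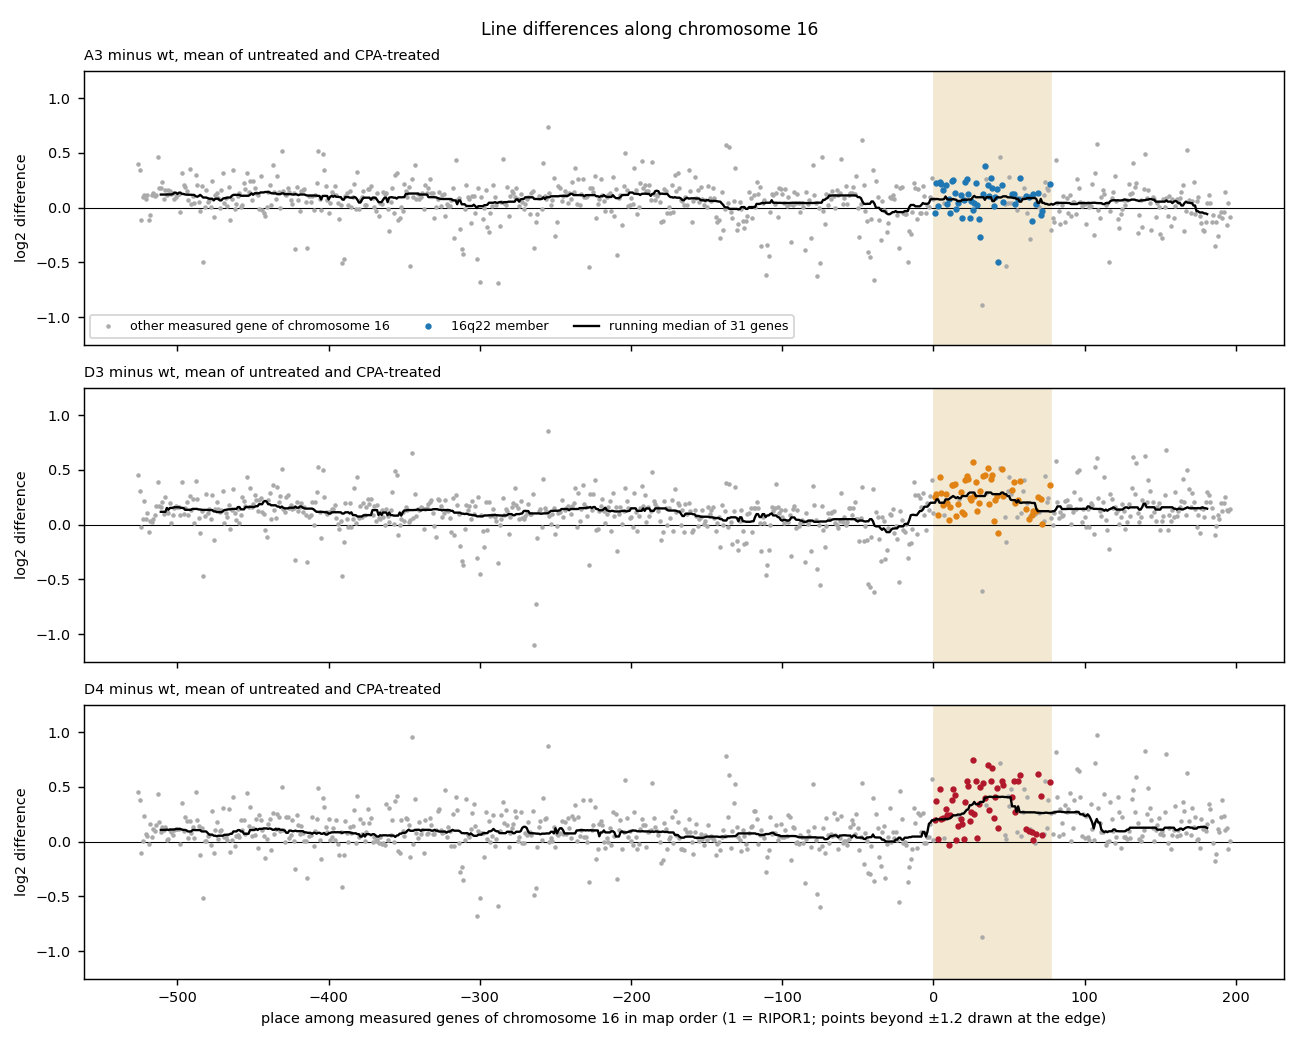
Log2 difference from wt (vertical axes, mean of untreated and CPA-treated) of each measured gene of chromosome 16 in map order (horizontal axis, place among measured genes with RIPOR1 at 1) in A3, D3 and D4. Coloured points are members, grey points other genes, the shaded band is the stretch from RIPOR1 to DHX38 and the line is a running median of 31 genes. The line is higher within the band than before it in D3 and D4, most so in D4, and in D4 stays up over the first genes beyond the band.

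Medians of whole chromosomes were mostly smaller, but they are taken over many more genes and can hide a shifted stretch. Chromosome 16 as a whole, members included, had a median of 0.09 in D4 against wt. Stretches of other chromosomes were not compared. Over the other 22 chromosomes, counting X, the median difference of D4 from wt ran from -0.01 on chromosome 9 to 0.10 on chromosome 6. For D3 against wt it ran from -0.01 to 0.07, for D4 against A3 from -0.14 to 0.09, and for D3 against A3 from -0.11 to 0.06. For A3 against wt it reached 0.15 on chromosome 22, above the member median of 0.10. The remaining 668 genes of chromosome 16 had a median of 0.09 in D4 against wt and 0.12 in D3 against wt.

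The differences of the members were not of 1 size. In D4 against wt they ran from -0.03 (TSNAXIP1) to 0.75 (SLC7A6), with quartiles at 0.17 and 0.51. Size went with signal. Of the members, 36 had a mean signal at or above that of the median gene (log2 7.13), and these had a median of 0.42 with 32 called higher. The 19 below it had a median of 0.09 with 7 called higher. Of all genes, at any signal, 13.9% were called higher in D4 against wt. Over the 55 members the Spearman correlation of mean signal with the difference was 0.70 in D4 against wt, 0.66 in D4 against A3, 0.58 in D3 against wt, 0.44 in D3 against A3 and 0.33 in A3 against wt. Over all genes these values were 0.00, 0.01, -0.08, -0.11 and 0.00. The points share arrays and normalization, and 8 members lay among the dimmest 30% of genes (TSNAXIP1, DPEP2, SMPD3, TMED6, HYDIN, CALB2, CHST4 and MARVELD3). The part of probe background in the small differences of dim members was not tested.

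Untreated and treated arrays gave 2 readings of each line difference that share no sample. Both entered the choice of the members, were normalized together and came from 1 fit. Their closeness is therefore a description and no independent check. For D4 against wt the member medians were 0.36 untreated and 0.36 treated, for D4 against A3 0.19 and 0.28, for D3 against wt 0.31 and 0.21, for D3 against A3 0.17 and 0.15, and for A3 against wt 0.13 and 0.08. Member by member, the readings correlated with Pearson's r of 0.81 in D4 against wt, 0.77 in D4 against A3, 0.74 in A3 against wt, 0.67 in D3 against A3 and 0.66 in D3 against wt (n = 55 genes, which share the arrays of each reading and are not replicates). For D4 against D3 r was 0.15. Over all genes r was 0.72, 0.30, 0.84, 0.59 and 0.76 in the same order and -0.23 for D4 against D3, so the members' r lay below that of all genes for A3 and D3 against wt. Called higher in both readings were 29 members for D4 against wt (4.95% of all genes), 16 for D4 against A3 (1.32%), 16 for D3 against wt (3.43%), 4 for D3 against A3 (0.762%) and 3 for A3 against wt (5.14%). SLC7A6 and TANGO6 were among them in all 4 comparisons of a resistant clone with wt or A3.

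**Figure D5:**
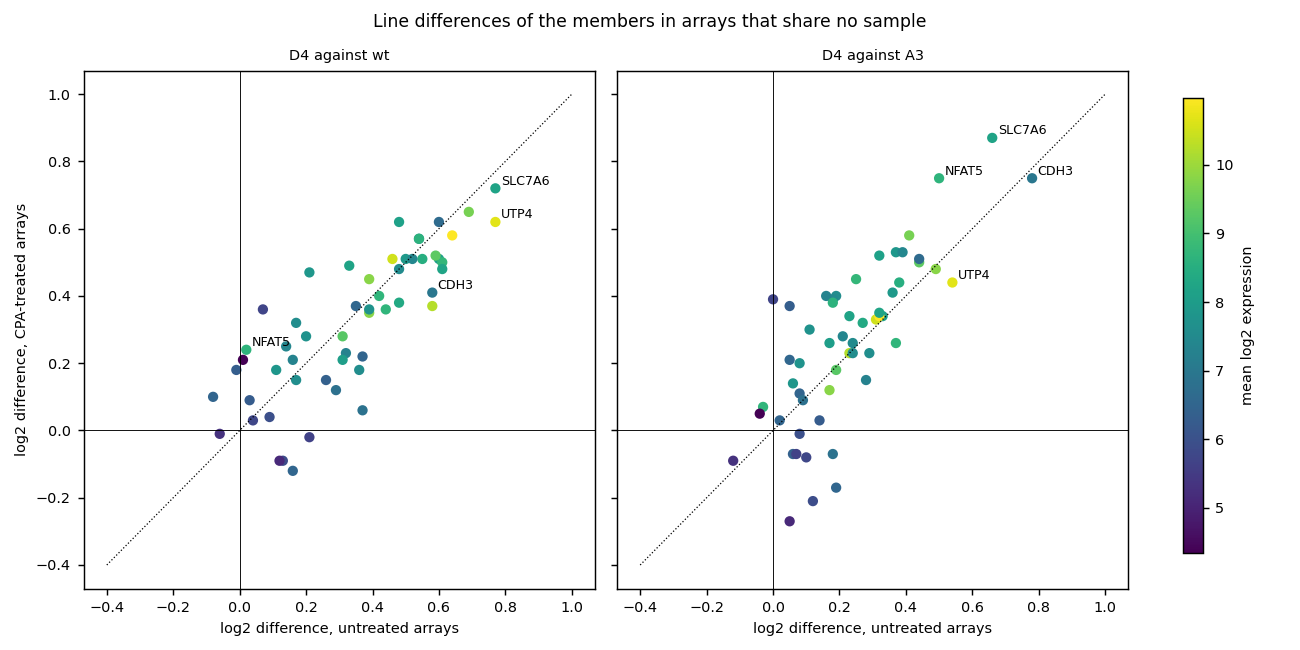
Log2 difference of each of the 55 members in the untreated arrays (horizontal axes) against that in the CPA-treated arrays (vertical axes) for D4 against wt and D4 against A3, coloured by mean log2 expression, with a dotted line of equality. Points lie along the line (Pearson's r of 0.81 and 0.77), and the darkest, dimmest members gather near 0.

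Within groups, with group means removed, the median pairwise correlation of members over the 31 arrays was 0.11. No value for other genes stands beside it, so it cannot be read as high or low. The array with the highest member median, 0.31, was D4 control replicate 4, and the lowest, -0.24, was wt control replicate 2.

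No member passed the test for an effect of CPA. The rule for the members names no contrast, covers all 8 groups of line and treatment, and speaks of even shifts like those of copy number. Such a shift is the same with and without CPA. The choice may thus have favoured members with little effect of CPA, and the low counts here are a description. In wt, 0 of 55 members were called, beside 0.0462% of all genes. In A3, 0 were called beside 0.352%, in D3, 0 beside 0.231%, and in D4, 0 beside 1.03%. At an unadjusted p under 0.05 the counts came to 0 for wt, 2 for A3, 6 for D3 and 7 for D4. The shares of all genes under that p were 3.38%, 6.68%, 12.8% and 21.9% in the same order, so no line had a larger share of members than of all genes. The members' median difference between treated and untreated tumours came to 0.03 for wt, 0.00 for A3, -0.01 for D3 and 0.01 for D4. Single members ran from -0.17 (SMPD3) to 0.18 (PSMB10) in wt, from -0.24 (HAS3) to 0.15 (DDX19B) in A3, from -0.26 (NIP7) to 0.23 (DPEP2) in D3, and from -0.26 (CARMIL2) to 0.40 (TMED6) in D4.

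The smallest adjusted p belonged to TMED6 in D4, at 0.40 ± 0.11 (SE) and an adjusted p of 0.0682. In D3 it belonged to NIP7, at -0.26 ± 0.08 and an adjusted p of 0.236, and in A3 to HAS3, at -0.24 ± 0.07 and an adjusted p of 0.341. These 3 genes were chosen after their values were seen. Their standard errors leave room for changes of a size that the test did not call. TMED6 was called in D4 after a further quantile normalization and with array weights, and ENKD1 was called in D4 without D4 control replicate 2.

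Whether the effect of CPA on the members differed between lines was tested as an interaction, with the same limit from the choice of the members. The count of called members was 0 in all 6 pairs of lines. Of all genes 0.0866% were called for D4 against D3, and 0% in each of the 5 other pairs. At an unadjusted p under 0.05 there were 9 members for D4 against D3, 4 for D4 against A3, 1 for D3 against A3, 7 for D3 against wt, 2 for D4 against wt and 2 for A3 against wt. The shares of all genes under that p were 26.9%, 14.3%, 2.93%, 6.61%, 7.33% and 3.20% in the same order. The smallest adjusted p was 0.0794, for DDX19A in D4 against D3, where the effect of CPA was 0.43 ± 0.13 (SE) higher in D4.

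Markers fixed for the cells of the tumours were read on the same arrays. The arrays carry probes for human genes, whereas fibroblasts, endothelial and myeloid cells of a xenograft come largely from the host animal. How far host transcripts were read was not tested, so these lists do not measure host cell content. The 6 epithelial carcinoma markers averaged between 8.49 and 8.82 over the groups, led by KRT19, KRT18 and KRT8 at means of 10.35, 10.00 and 9.92. Of 5 markers of the prostate luminal lineage only KLK3 and KLK2 were measured, at 5.93 and 5.85, below the median gene. The fibroblast list (6 genes) averaged 6.40 to 6.70, the endothelial list (5 genes) 6.25 to 6.52, and the myeloid list (5 of 6 measured) 5.43 to 5.56. The defining genes DCN, LUM and PTPRC stood at 3.27, 3.15 and 3.18, at percentiles 1.48, 1.12 and 1.21 of all genes. Other markers of these lists were bright: the collagen genes COL1A1 and COL1A2 of the fibroblast list stood at 9.93 and 9.40 (percentiles 94.7 and 90.1), KDR of the endothelial list at 8.61 (78.8) and CD68 of the myeloid list at 8.66 (79.6). Per array, the epithelial list ran from 8.63 to 8.94 in wt, 8.44 to 8.62 in A3, 8.63 to 8.83 in D3 and 8.46 to 8.86 in D4, and the fibroblast list from 6.47 to 6.85, 6.28 to 6.59, 6.52 to 6.75 and 6.43 to 6.72. Averaged over arrays, both lists were lowest in A3, where 3 of 6 epithelial markers, CDH1 among them, and 2 of 6 fibroblast markers were called lower than in wt. Their part in the line differences of the members was not tested. In bulk tumours, fewer cells of a type and less RNA per cell cannot be told apart.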

How the data were processed

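Total RNA of PC3 xenograft tumours was hybridised to 31 Human Gene 1.0 ST arrays of Affymetrix. The deposited values are log2 expression levels made by the authors with RMA, per the submitters' processing notes; its software and version are not given in the sources used here. RMA subtracts background, forces arrays to 1 distribution and summarises probes, so a shift shared by most genes would be removed. Deposited array medians lay between 7.08 and 7.17 over the genes used.

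Of 23989 probe sets, 17624 had 1 symbol in the platform annotation. The set with the highest mean was kept for the 276 genes with several, leaving 17314, of which 17290 matched the RefSeq table of GRCh38.p14 by Entrez number. That table gave current names and map order only. The 60 members, their roles, the marker lists and the alternatives were chosen with earlier results of these data known.

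Differences were fitted with limma 3.58.1 in R 4.3.3 (lmFit, eBayes) over 8 group means with 23 residual degrees of freedom, adjusted over all genes and called at 0.05. Values are log2 differences ± SE, or means ± SD. Every member is named. Values per array are given for the 8 members with the largest spread of line means, and values of non-members for the 5 highest, 5 lowest and 5 nearest on each side. The fit was tested on simulated data for D4 against wt (17314 genes, 200 changed): it recovered 29.5% of changes of 0.25, 94.0% of 0.5 and 99.5% of 1, and called 8, 16 and 13 unchanged genes.

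As alternatives, only the compared groups were fitted, the replicate number entered as a block, arrays were weighted, the values were quantile normalized again or each array centred on its median, and other steps were changed: leaving out the dimmest 30% of genes, taking the lowest probe set per gene, leaving out each array in turn and, chosen after seeing the data, dropping the 4 arrays that lay farthest from their groups. No batch or scan date is given in the labels.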

Additional observations from a re-analysis of the deposited data

Results flagged for a closer look

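Within groups of 4 arrays, 70 checks for an array far from the others (Dixon's test) were made over the 8 members with the largest spread between lines, the median over all members and CDH1, and 4 arrays stood out; chance alone marks about 1 in 20. NIP7 read 9.75 in D4 CPA replicate 4, below the other treated D4 arrays. PHLPP2 read 6.29 in wt control replicate 1, below the other untreated wt arrays, and 7.30 in D4 CPA replicate 2, above the other treated D4 arrays. CDH1, which is not a member, read 6.43 in D3 control replicate 3, above the other untreated D3 arrays.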

How the results depend on the processing

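Medians and called counts of the members in 10 contrasts were recomputed under 8 other settings, and 154 of 160 values stayed close to the reported one. Close meant a median moved by less than 0.06, the SD among replicates, or a count equal or within 1.5 times. The CPA medians were smaller than 0.06, so their direction was not checked this way. Medians could not move on fitting only the compared groups. Nor could they move on taking the lowest probe set, since each member had a single set. The exceptions were these. The 5 members called in D4 against D3 became 14 with array weights, 9 when the 4 arrays that lay farthest from their groups were dropped and 3 with the replicate number as a block. The 0 members called for CPA in D4 became 1, TMED6, after a further quantile normalization and 1 with array weights. The median of D4 against wt of 0.34 became 0.40 without the dimmest 30% of genes, a setting that leaves out 8 dim members. The cause of the other changes was not tested. With each array left out in turn, the count called in D4 against D3 ran from 2 to 9 and that for CPA in D4 from 0 to 1, and the counts of the other contrasts stayed within 1.5 times those reported.

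Same-numbered arrays mostly did not deviate together: in 2 of 28 pairs of groups every correlation was above 0.1 (untreated D3 with untreated wt and with untreated D4), and over all pairs they ran from -0.66 to 0.60. With the replicate number as a block, 3 members were called in D4 against D3, as given above, and the counts were 24 in D3 and 35 in D4 against A3, and 15, 40 and 39 in A3, D3 and D4 against wt.

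In simulated data for D4 against wt, with 200 of 17314 genes changed, 29.5% of changes of 0.25 were recovered. In the measured contrast 28.3% of all genes were called, and adjustment is less strict where more genes differ. The simulated share is thus not the sensitivity of that contrast. A member that was not called may still differ. The lines are single clones, RNA of host cells was not separated, and DNA was not measured.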
